A study of Mus musculus with 16 samples.

Results

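NF-kB is a family of dimeric transcription factors held inactive by IkB inhibitor proteins, and the genes of its subunits and inhibitors were followed here in luminal cells of the mouse mammary gland. The members were Nfkb1, Nfkb2, Rel, Rela and Relb, which encode the 5 subunits, and Nfkbia, Nfkbib, Nfkbie, Nfkbiz and Tnfaip3, which encode inhibitors of the pathway. They were chosen by gene symbol, and every probe set annotated to exactly 1 of these symbols was taken. Of the 10 genes, 9 had such a probe set, 14 of the 45141 probe sets in all, and Nfkb1 was not analysed here. All 9 passed the filter on low values and were among the 14410 genes tested, of 17097 genes with a single-symbol probe set.

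RNA from luminal cells sorted by flow cytometry was hybridised to 16 Affymetrix mouse arrays, 4 for each of 4 genotypes. The groups were p38a-lox, MMTV-Cre mice at 9 weeks (called p38a-lox), MMTV-Cre mice at 9 weeks (called MMTV-Cre), p38a-lox, MMTV-Cre, MMTV-PyMT mice at 6 weeks (called p38a-lox PyMT) and MMTV-Cre, MMTV-PyMT mice at 6 weeks (called PyMT). All 4 groups carried MMTV-Cre, in which the mammary tumour virus promoter drives Cre recombinase in mammary epithelium. MMTV-PyMT uses the same promoter to express the polyoma middle T oncogene, and p38a-lox is a floxed allele of Mapk14, which encodes the stress-activated kinase p38α. PyMT groups were 6 weeks old and the others 9 weeks old, so the oncogene and age cannot be told apart. Whether arrays stand for separate animals is not stated in the labels, and p-values therefore measure only the spread between arrays, which may be technical.

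In resting cells, IkBα (Nfkbia), IkBβ (Nfkbib) and IkBε (Nfkbie) hold dimers such as p50-RelA in the cytoplasm. Receptors for TNF, interleukin-1 or bacterial products activate the IKK kinase complex, which marks the IkB proteins for destruction. A second route, used by RANK and the lymphotoxin-β receptor, processes the Nfkb2 product p100 to p52, the partner of RelB. Several inhibitor genes are themselves targets of NF-kB and form negative feedback loops. In the mammary gland, RANK and NF-kB are known for their part in the growth of luminal and alveolar cells.

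The promoters of several members hold the sequence that NF-kB binds, which is why the following stretches are shown. A kB site here is a match of 10 bases to the consensus kB motif on either strand, searched in the 250 bases before the transcription start in the RefSeq windows of build GRCm38.p6. Capitals mark the match, each line runs 5′ to 3′ along the gene's strand, and 1 match is shown for each start chosen, not every match found.
Nfkb2, chr19:46304683-46304722, plus strand: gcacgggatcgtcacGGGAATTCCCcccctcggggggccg
Nfkb2, a second start, chr19:46305690-46305729, plus strand: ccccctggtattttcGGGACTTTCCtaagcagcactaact
Rel, chr11:23771037-23771076, minus strand: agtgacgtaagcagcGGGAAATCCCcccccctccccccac
Nfkbia, chr12:55492652-55492691, minus strand: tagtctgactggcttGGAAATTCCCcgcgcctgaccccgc
Nfkbie, chr17:45555579-45555618, plus strand: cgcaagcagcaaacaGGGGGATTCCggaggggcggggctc
Tnfaip3, chr10:19015411-19015437, minus strand: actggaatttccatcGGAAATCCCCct

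The matches began 29 bases before the start in Nfkbia, 106 in Nfkbie, 92 in Rel, 12 in Tnfaip3, and 39 and 225 in the Nfkb2 windows shown. Further matches that do not overlap these began 125 bases before the start in Tnfaip3, and 11 and 236 in Nfkb2. RefSeq windows were matched for 7 of the 10 genes. A match was present in 5 of these 7 genes (71.4%), against 1204 of 27025 genes with a window (4.46%). By window the counts were 7 of 10, against 1281 of 32851 (3.90%). The windows of Rela and Nfkbib held no match in these letters. A match is a description of the sequence and not a measured binding site.

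**Figure D1:**
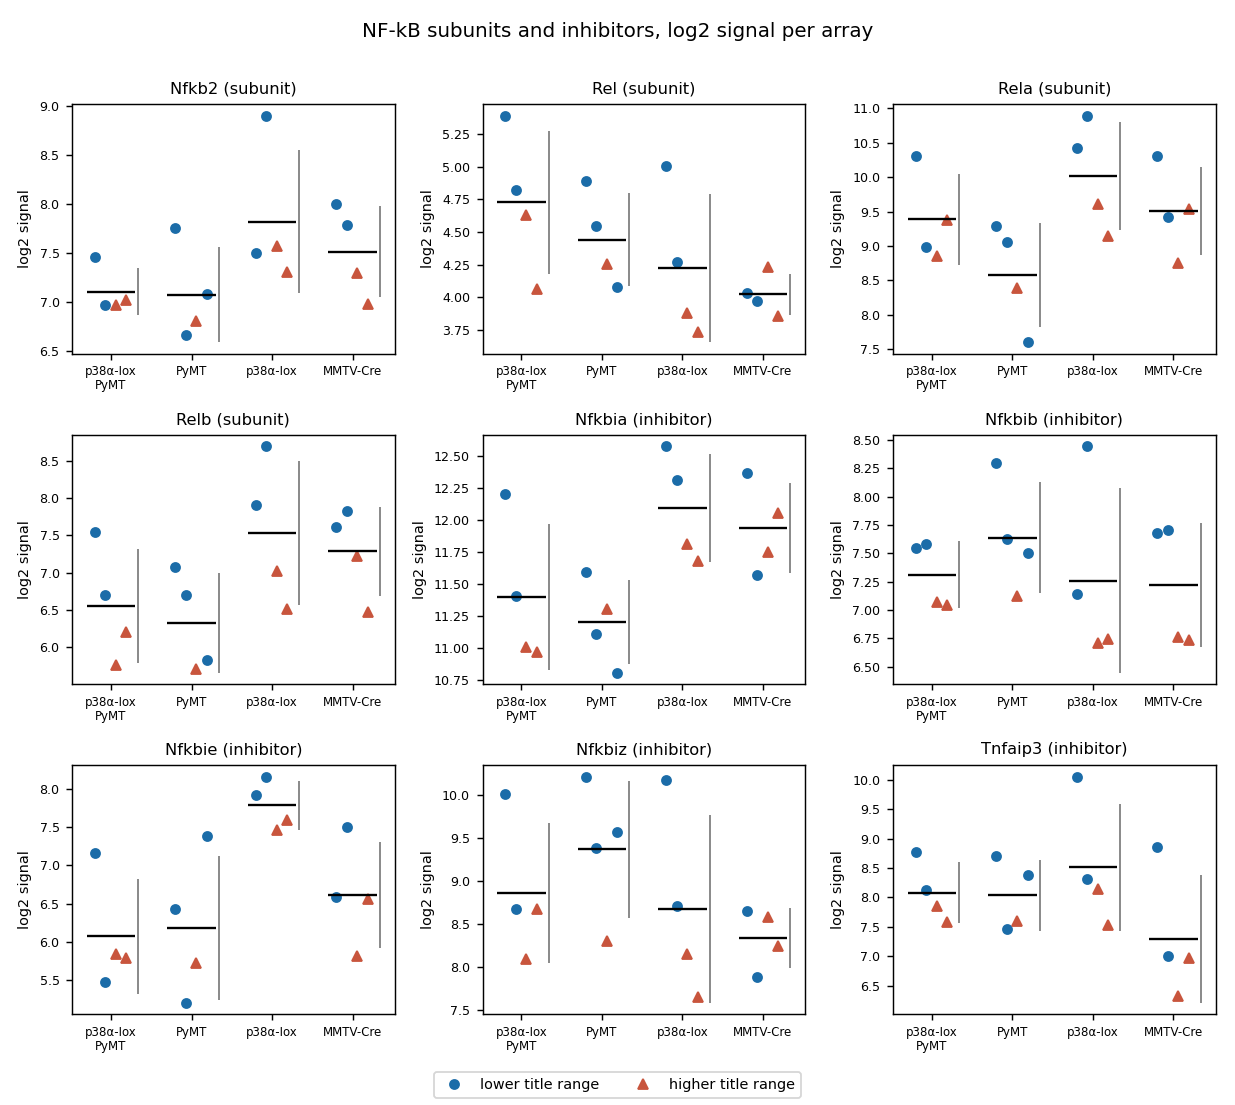
Log2 signal of each of the 9 measured NF-kB genes on each of the 16 arrays, 1 panel a gene and 1 column of points a group, with bars for the group mean and SD (n = 4) and marker shape for the range of the number in the sample title. Nfkbie points of the p38a-lox group (7.46 to 8.16) lie above all those of the p38a-lox PyMT group (5.48 to 7.16).

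All values are log2 signals made by RMA, so a difference of 1 is a 2-fold change, and levels of different genes cannot be set against each other. Array medians lay between 4.63 and 4.88, and correlations between arrays ran from 0.885 to 0.990. The lowest median correlations with the other arrays were those of p38a-lox replicate 2 and PyMT replicate 4. Luminal markers were high in all groups, with list means of 11.35 to 11.55 in p38a-lox PyMT, 11.08 to 11.57 in PyMT, 11.24 to 11.36 in p38a-lox and 11.35 to 11.56 in MMTV-Cre arrays. The targeted gene Mapk14 averaged 7.31 ± 0.862 in p38a-lox and 6.53 ± 0.885 in MMTV-Cre arrays (SD, n = 4 each), a difference of 0.78 ± 0.416 (limma SE, adjusted p = 0.999). With PyMT it averaged 7.23 ± 0.103 in p38a-lox PyMT and 7.20 ± 0.321 in PyMT arrays (SD, n = 4 each). Mapk14 did not average lower in the arrays labelled p38a-lox; the sources used here do not say whether its probe set lies in the floxed exons, and groups are called by their labels throughout.

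The comparison of p38a-lox with MMTV-Cre cells asked how the floxed allele relates to NF-kB gene expression without the oncogene. No member passed the threshold, an adjusted p below 0.05 by limma with Benjamini-Hochberg adjustment over all tested genes. Neither did any other of the 14410 genes (0%), while 690 (4.79%) had an unadjusted p under 0.05. All 9 members had estimates above 0, against 50.1% of all genes, and their median difference was 0.30, against 0.00 for all genes. The 2 members with an unadjusted p under 0.05 were the inhibitors Nfkbie and Tnfaip3.

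Nfkbie encodes IkBε, which retains RelA and c-Rel dimers. Its log2 signals were 7.92, 8.16, 7.46 and 7.59 in the p38a-lox arrays, against 6.58, 7.50, 5.81 and 6.56 in the MMTV-Cre arrays. In 15 of the 16 pairs of arrays the p38a-lox array was the higher one, and the groups overlapped only through MMTV-Cre replicate 2. The difference was 1.17 ± 0.460 (limma SE, unadjusted p = 0.0225, adjusted p = 0.963), and the exact two-sided permutation test gave p = 0.0571, where the smallest possible p is 0.0286. The second Nfkbie probe set read 8.14, 9.14, 6.83 and 6.83 in p38a-lox arrays, against 7.36, 7.93, 5.66 and 5.30 in MMTV-Cre arrays. Its difference was of the same size, 1.17 ± 0.678, with wider spread. Both probe sets thus averaged higher in the p38a-lox group without passing the threshold.

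Tnfaip3 encodes A20, a ubiquitin-editing enzyme that shuts off signalling from the TNF and Toll-like receptors. Its log2 signals were 10.06, 8.31, 8.15 and 7.52 in p38a-lox arrays, against 8.86, 7.01, 6.33 and 6.98 in MMTV-Cre arrays. One array of each group, replicate 1, was well above the others, and the groups overlapped. The difference was 1.22 ± 0.557 (limma SE, unadjusted p = 0.0456, adjusted p = 0.999), and the exact two-sided permutation p was 0.229. It was 0.70 without p38a-lox replicate 1, 1.74 without MMTV-Cre replicate 1, and 0.66 ± 0.463 on the second, dimmer probe set.

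The other inhibitors differed by less than their spread. Nfkbia, whose product IkBα is the main rapid inhibitor, had log2 signals of 12.57, 12.31, 11.81 and 11.68 in p38a-lox arrays, against 12.37, 11.57, 11.75 and 12.05 in MMTV-Cre arrays, a difference of 0.16 ± 0.286. Nfkbib, which encodes IkBβ, averaged 7.26 ± 0.814 in p38a-lox and 7.22 ± 0.547 in MMTV-Cre arrays (SD, n = 4 each). Nfkbiz encodes IkBζ, a nuclear cofactor that activates some NF-kB targets and restrains others. Its log2 signals were 10.17, 8.70, 8.15 and 7.65 in p38a-lox arrays, against 8.65, 7.88, 8.58 and 8.24 in MMTV-Cre arrays, so p38a-lox arrays held both the highest and the lowest value. Its 3 probe sets gave differences of 0.33, 0.24 and -0.11, which do not share a direction.

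Among the subunits, RelA is the main transactivating partner of the canonical route. Rela signals were 10.42, 10.89, 9.62 and 9.15 in p38a-lox arrays, against 10.31, 9.43, 8.75 and 9.53 in MMTV-Cre arrays, a difference of 0.51 ± 0.461. Relb, the partner of p52, had 7.91, 8.70, 7.02 and 6.51 in p38a-lox arrays, against 7.61, 7.83, 7.22 and 6.47 in MMTV-Cre arrays, a difference of 0.25 ± 0.494. Both sets of arrays overlapped.

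Nfkb2 signals were 7.50, 8.90, 7.57 and 7.30 in p38a-lox arrays, against 8.00, 7.78, 7.30 and 6.98 in MMTV-Cre arrays, a difference of 0.30 ± 0.335. Rel, which encodes c-Rel and is best known from lymphocytes, had signals near the filter, 5.01, 4.27, 3.88 and 3.74 in p38a-lox arrays, against 4.03, 3.97, 4.23 and 3.86 in MMTV-Cre arrays. The direction shared by the 9 members rested on few arrays. Without p38a-lox replicate 1, 6 of 9 estimates were above 0, and the same count was found without p38a-lox replicate 2. With limma array weights 4 of 9 were above 0.

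**Figure D2:**
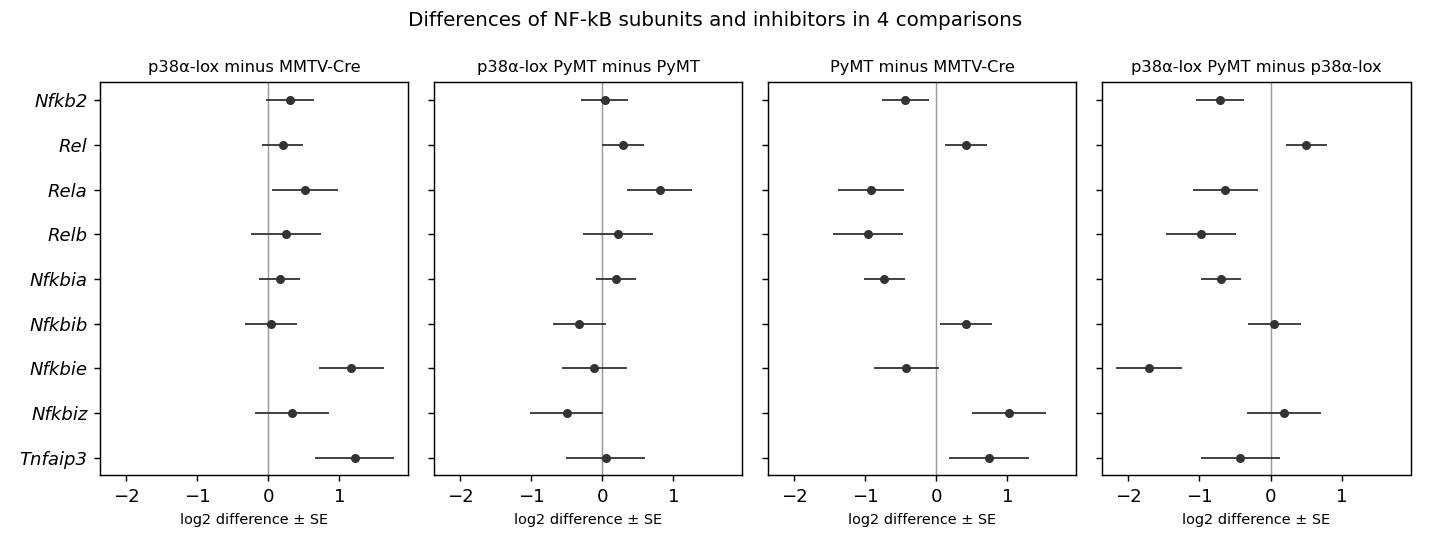
Log2 difference of each member with its limma standard error in the comparisons of p38a-lox with its control, without and with PyMT, and of PyMT with no PyMT, in both p38a-lox states. Without PyMT all 9 estimates for p38a-lox lie above 0, and the Nfkbie estimate farthest from 0, -1.71 ± 0.460, is that between p38a-lox PyMT and p38a-lox arrays; none of the points drawn passed the threshold.

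The same comparison was made in PyMT cells. None of the 9 members passed the threshold, nor did any other gene (0% of 14410), and none of the 9 had an unadjusted p under 0.05, against 3.58% of all genes. Estimates were above 0 for 6 of 9 members, against 41.8% of all genes, with a median of 0.05. The largest difference was that of Rela, with log2 signals of 10.31, 8.99, 8.86 and 9.38 in p38a-lox PyMT arrays, against 9.29, 9.05, 8.38 and 7.60 in PyMT arrays. The lowest p38a-lox PyMT array lay below 2 of the 4 PyMT arrays, and the difference was 0.80 ± 0.461 (limma SE, unadjusted p = 0.101, adjusted p = 0.999).

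Nfkbiz and Nfkbib had the largest negative estimates with PyMT, -0.51 ± 0.520 and -0.32 ± 0.371. Nfkbiz read 10.01, 8.67, 8.09 and 8.67 in p38a-lox PyMT arrays, against 10.21, 9.38, 8.29 and 9.57 in PyMT arrays. Nfkbib read 7.55, 7.59, 7.07 and 7.04 in p38a-lox PyMT arrays, against 8.30, 7.63, 7.12 and 7.50 in PyMT arrays. Neither gene separated the groups. Nfkbie averaged 6.07 ± 0.747 in p38a-lox PyMT and 6.19 ± 0.941 in PyMT arrays (SD, n = 4 each), and Tnfaip3 averaged 8.08 and 8.04 in the same groups.

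The difference between these effects was tested as an interaction. It was -1.29 ± 0.650 for Nfkbie (limma SE, unadjusted p = 0.0669, adjusted p = 0.992) and -1.17 ± 0.788 for Tnfaip3 (unadjusted p = 0.159, adjusted p = 0.992), the sizes by which the p38a-lox difference was smaller with PyMT. No member and no other gene passed the threshold (0%), while 406 genes (2.82%) and 0 members had an unadjusted p under 0.05. An effect of p38a-lox that depends on PyMT was therefore not detectable for these genes.

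The comparison of PyMT with MMTV-Cre cells set oncogene-bearing against normal luminal cells, together with 6 against 9 weeks of age. Here 182 genes (1.26%) were called, 127 higher and 55 lower, and 0 of the 9 members were among them. One member, Nfkbia, had an unadjusted p under 0.05, against 13.8% of all genes. Its log2 signals were 11.59, 11.11, 11.31 and 10.80 in PyMT arrays, against 12.37, 11.57, 11.75 and 12.05 in MMTV-Cre arrays. Only PyMT replicate 1 reached the range of the MMTV-Cre arrays, and the difference was -0.73 ± 0.286 (limma SE, unadjusted p = 0.0217, adjusted p = 0.252).

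Rela and Relb also averaged lower in PyMT cells and Nfkbiz higher, none passing the threshold. Relb signals were 7.08, 6.70, 5.70 and 5.82 in PyMT arrays, against 7.61, 7.83, 7.22 and 6.47 in MMTV-Cre arrays, a difference of -0.96 ± 0.494 (limma SE, adjusted p = 0.425). The difference was -0.92 ± 0.461 for Rela (adjusted p = 0.403) and 1.03 ± 0.520 for Nfkbiz (adjusted p = 0.416). The Nfkbiz difference was 0.34 and -0.12 on its other probe sets. Nfkbib differed by 0.42 ± 0.371 on the brighter probe set and by -0.16 ± 0.145 on the dimmer one, so its probe sets did not share a direction.

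Within p38a-lox cells, PyMT against no PyMT called 112 genes (0.777%) and again 0 of the 9 members. Nfkbie came closest. Its log2 signals were 7.16, 5.48, 5.84 and 5.79 in p38a-lox PyMT arrays, against 7.92, 8.16, 7.46 and 7.59 in p38a-lox arrays. Every p38a-lox PyMT array lay below every p38a-lox array, as was the case for 3.75% of all genes in that direction. The difference was -1.71 ± 0.460 (limma SE, unadjusted p = 0.00208, adjusted p = 0.106), and the exact two-sided permutation p was 0.0286, the smallest possible. With 1 array left out, it ran from -2.08 to -1.51, with limma adjusted p from 0.0367 to 0.325. It passed the threshold in 1 of 16 fits, that without p38a-lox PyMT replicate 1. The 16 include fits without an MMTV-Cre or PyMT array, in which the difference itself stayed at -1.71.

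The second Nfkbie probe set differed by -1.73 ± 0.678, and its arrays overlapped. Its exact two-sided permutation p was 0.0857. Over 36 exact tests, 9 members by their brightest probe set in 4 comparisons, the difference of the first Nfkbie probe set was the only 1 with p under 0.05. Outside these 36, the dimmer Nfkbib probe set also had an exact permutation p of 0.0286 in PyMT against MMTV-Cre arrays (difference -0.16). The exact p-values were not adjusted for the number of tests. Nfkbia read 12.20, 11.40, 11.01 and 10.97 in p38a-lox PyMT arrays, against 12.57, 12.31, 11.81 and 11.68 in p38a-lox arrays, a difference of -0.70 ± 0.286 (limma SE, adjusted p = 0.328). Relb read 7.54, 6.70, 5.75 and 6.20 in p38a-lox PyMT arrays, against 7.91, 8.70, 7.02 and 6.51 in p38a-lox arrays, a difference of -0.98 ± 0.494. Both genes averaged lower with PyMT in either p38a-lox state, but each pair of groups overlapped.

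Nfkb2 read 7.46, 6.97, 6.97 and 7.03 in p38a-lox PyMT arrays, against 7.50, 8.90, 7.57 and 7.30 in p38a-lox arrays, a difference of -0.71 ± 0.335 that was -0.35 without p38a-lox replicate 2. Without p38a-lox the Nfkb2 signals were 7.76, 6.66, 6.81 and 7.08 in PyMT arrays, against 8.00, 7.78, 7.30 and 6.98 in MMTV-Cre arrays. Rel was the only subunit with estimates above 0 in both PyMT comparisons, 0.42 ± 0.292 without and 0.50 ± 0.292 with p38a-lox. Its signals were 5.39, 4.82, 4.63 and 4.07 in p38a-lox PyMT and 4.89, 4.54, 4.25 and 4.08 in PyMT arrays.

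A contrast of all 8 PyMT arrays with all 8 arrays without PyMT, averaged over both p38a-lox states, was added after seeing the data. It called 891 genes (6.18%), 529 higher and 362 lower, and 1 of the 9 members, Nfkbia, which fell by 0.72 on the log2 scale (limma SE 0.202, adjusted p = 0.0492). This call was lost in 13 of the 16 fits that left out 1 array. Over all 16 fits the difference ran from -0.85 to -0.64. The call was also lost without the 2 arrays of lowest correlation (-0.61, limma adjusted p = 0.135). Nfkbie differed by -1.07 ± 0.325 (adjusted p = 0.0659), and by -1.20 without those 2 arrays (adjusted p = 0.0437). Relb differed by -0.97 ± 0.349 (adjusted p = 0.121). An unadjusted p under 0.05 was found for 6 of the 9 members, against 19.7% of all genes. These were Nfkb2, Rel, Rela, Relb, Nfkbia and Nfkbie, of which all but Rel averaged lower with PyMT.

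Tnfaip3 did not share that direction, at 0.74 ± 0.557 without p38a-lox and -0.43 ± 0.557 within p38a-lox cells. Its signals were 8.78, 8.12, 7.86 and 7.58 in p38a-lox PyMT arrays and 8.71, 7.46, 7.59 and 8.38 in PyMT arrays. Averaged over both states the difference was 0.16 ± 0.394.

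**Figure D3:**
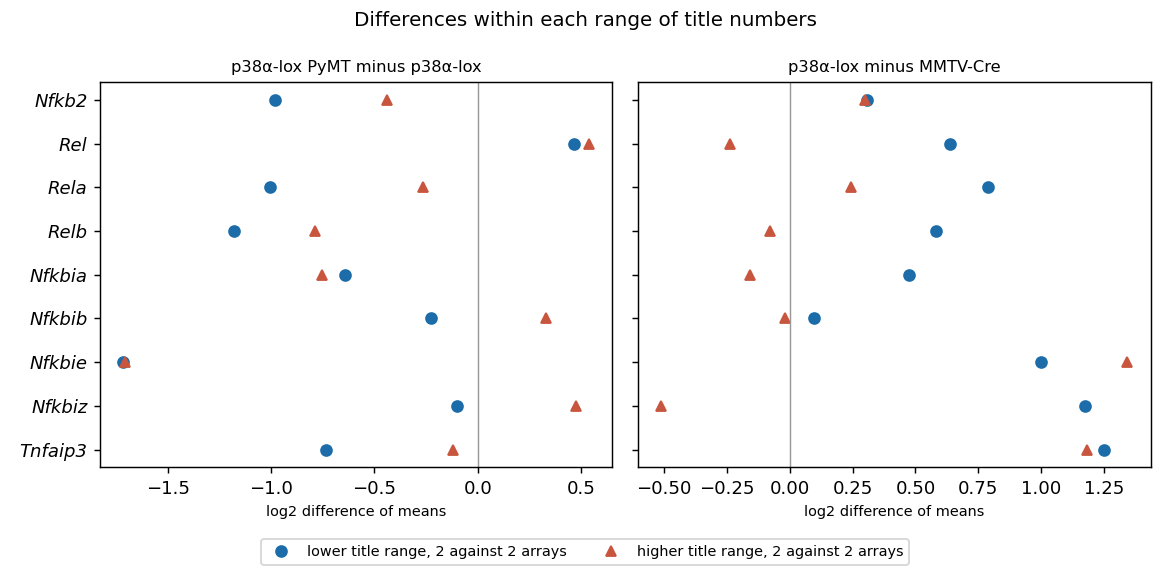
Log2 difference of each member within the lower and higher range of the numbers in the sample titles (2 arrays against 2 in each). The left panel sets p38a-lox PyMT against p38a-lox arrays, and the right panel p38a-lox against MMTV-Cre arrays. On the right, Nfkbie, Tnfaip3, Nfkb2 and Rela lie above 0 in both ranges. Rel, Relb, Nfkbia, Nfkbib and Nfkbiz lie there above 0 in the lower range and below 0 in the higher one. On the left, Nfkbie, Nfkb2, Rela, Relb, Nfkbia and Tnfaip3 lie below 0 in both ranges and Rel above 0 in both. Nfkbib and Nfkbiz lie there below 0 in the lower range and above 0 in the higher one.

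The sample titles carry numbers of unstated meaning that fall into a lower range (9 arrays) and a higher one (7 arrays), and the NF-kB genes moved with this split. By their brightest probe sets, all 9 members averaged higher in the lower range after allowing for genotype, against 56.1% of all genes. An unadjusted p under 0.05 in that direction was found for 7 of 9 members, against 8.87% of all genes, while 16 genes (0.111%) and 0 members were called. The difference was 1.12 ± 0.221 for Relb (limma SE, adjusted p = 0.0766), 0.81 ± 0.176 for Nfkbib (adjusted p = 0.0956) and 1.01 ± 0.321 for Tnfaip3 (adjusted p = 0.193). The third Nfkbiz probe set did not share this direction throughout. In MMTV-Cre arrays it averaged 5.84 in the lower and 7.50 in the higher range. It averaged 6.89 and 6.96 in p38a-lox PyMT, 6.53 and 6.61 in PyMT, and 6.70 and 6.43 in p38a-lox arrays. Nfkbib ranged from 7.14 to 8.45 in the lower range, against 6.71 to 7.12 in the higher one, a separation seen for 0.298% of all genes. Its dimmer probe set did not separate the ranges, at 4.29 to 5.05 in the lower and 4.27 to 4.78 in the higher one.

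The p38a-lox difference without PyMT was 0.999 in the lower and 1.34 in the higher range for Nfkbie, and 1.25 and 1.18 for Tnfaip3. On their second probe sets it was 0.99 and 1.35 for Nfkbie, but 0.95 and 0.37 for Tnfaip3. By the brightest probe sets this difference turned sign for 5 members. Nfkbiz differed by 1.17 in the lower and by -0.51 in the higher range, and Rel by 0.64 and -0.24. The Nfkbie difference between p38a-lox PyMT and p38a-lox arrays was -1.72 in the lower and -1.71 in the higher range.

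With the range as a covariate, the averaged PyMT contrast called 3 members, among 1061 of all genes (7.36%). These were Nfkbia (-0.77 ± 0.183, limma adjusted p = 0.0226), Relb (-1.11 ± 0.216, adjusted p = 0.00809) and Nfkbie (-1.15 ± 0.298, adjusted p = 0.0328). The 3 genes thus averaged lower in PyMT cells with this term, while no member was called for p38a-lox in either background. The within-range values of Relb ran the same way, at -1.19 in the lower and -1.14 in the higher range for PyMT against MMTV-Cre arrays, the higher range holding only 1 PyMT array.

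The members varied together from array to array. Over the 36 pairs of members and 16 arrays, the median Pearson correlation was 0.424. With the group means removed it was 0.567 and all 36 pairs were above 0, and with the title range also removed it was 0.307 and 26 pairs were above 0. These points share arrays and normalisation, and the values are a description. Pairs of other genes are not given here, so the values do not show a trait particular to the members. Among other genes, the closest to Nfkbie over the 16 arrays was Tnip1 (r = 0.861), which encodes ABIN-1, a partner of A20, followed by Tmem140 (0.835) and Enpp4 (0.83).

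The genes most like Nfkbia were Ssbp2 (r = 0.916), Ifngr1 (0.899), which encodes an interferon-γ receptor chain, and Cxcl16 (0.898), a chemokine. For Tnfaip3 they were Tns3 (r = 0.888), Rnf144b (0.853) and Tlr2 (0.839), a receptor for bacterial lipoproteins. For Nfkb2 they were Trim47 (r = 0.893), Rab20 (0.883) and St14 (0.848).

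**Figure D4:**
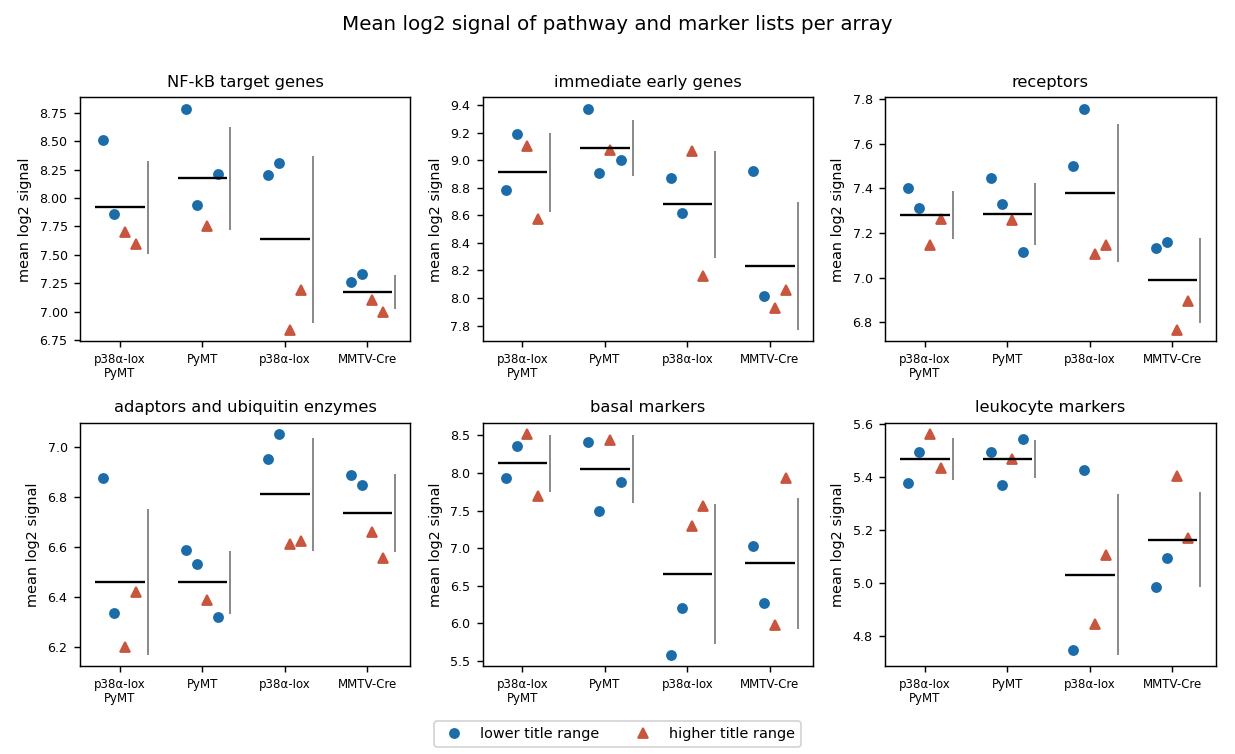
Mean log2 signal of each gene list on each array, 1 panel a list and 1 column of points a group. NF-kB target genes lie between 6.84 and 8.31 in p38a-lox, 7.0 and 7.33 in MMTV-Cre, 7.59 and 8.51 in p38a-lox PyMT and 7.75 and 8.79 in PyMT arrays; basal markers lie between 7.50 and 8.52 in the PyMT groups, against 5.58 and 7.93 in the others.

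Upstream of the members, 0 of 10 tested receptors were called in the 4 comparisons of single groups. Of all genes, these called 0% for p38a-lox in either background, 1.26% for PyMT without p38a-lox and 0.777% with it. The averaged PyMT contrast, which called 6.18% of all genes, called 1 of the 10 receptors, which was lower. Tnfrsf11a, which encodes RANK, differed by 1.87 ± 0.370 between p38a-lox and MMTV-Cre arrays (limma adjusted p = 0.209) and by 1.33 ± 0.370 between PyMT and MMTV-Cre arrays (adjusted p = 0.0946). Tlr3, a sensor of double-stranded RNA, differed by 1.19 ± 0.321 for p38a-lox without PyMT (adjusted p = 0.656). Neither the 6 tested ligands, which include Tnf, nor the 6 tested other IkB-like regulators, which include Bcl3, held a called gene in any of these comparisons.

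Of 10 tested kinases of the IKK step, 0 were called, and Ikbkb, the catalytic subunit that phosphorylates IkB proteins, differed by 0.69 ± 0.196 for p38a-lox without PyMT (limma adjusted p = 0.687). Of 22 tested adaptors and ubiquitin enzymes, 3 were called in the averaged PyMT contrast, all lower. In the comparisons of single groups 1 was called. Traf6, the ubiquitin ligase that links interleukin-1 and Toll-like receptors to IKK, fell by 1.58 on the log2 scale in PyMT against MMTV-Cre arrays (limma adjusted p = 0.0257). That comparison called 1.26% of all genes. In p38a-lox PyMT against p38a-lox arrays Traf6 differed by -1.33 ± 0.312 (adjusted p = 0.0621), and Tnip1 by -1.83 ± 0.408 (adjusted p = 0.0515).

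Downstream, 23 of 25 NF-kB target genes were tested. For p38a-lox without PyMT 20 of the 23 had estimates above 0, against 50.1% of all genes. Their median was 0.61, against 0.00 for all genes, and 0 of the 23 were called. The mean of these genes differed by 0.96 in the lower title range and by -0.04 in the higher one, so the difference was present in 1 range only. With PyMT 4 of the 23 had p38a-lox estimates above 0, against 41.8% of all genes. Their median was -0.21, against -0.04 for all genes.

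In PyMT against MMTV-Cre arrays, where 1.26% of all genes were called, 4 of the 23 targets rose and 0 fell. They were the acute-phase genes Saa1, by 5.14 ± 0.714 (limma adjusted p = 0.00395), and Saa2, by 3.83 ± 0.828 (adjusted p = 0.0365), and the neutrophil chemokine genes Cxcl1, by 3.42 ± 0.679 (adjusted p = 0.026), and Cxcl2, by 3.85 ± 0.795 (adjusted p = 0.0304). In p38a-lox PyMT against p38a-lox arrays, where 0.777% of all genes were called, only Saa1 passed, at 4.08 ± 0.714 (limma adjusted p = 0.0173). In the same 2 comparisons the members Nfkbia, Rela, Relb, Nfkb2 and Nfkbie had estimates below 0, and Rel, Nfkbib and Nfkbiz had estimates above 0, by their brightest probe sets. The dimmer Nfkbib probe set lay below 0 in both (-0.16 and -0.11), and the other Nfkbiz probe sets did not share a direction.

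Immediate early genes respond within minutes to growth factors and to tissue handling. Of 13 tested, 5 rose in PyMT against MMTV-Cre arrays, among them Egr1 by 2.59 ± 0.452 (limma adjusted p = 0.0139) and Nr4a1 by 1.99 ± 0.386 (adjusted p = 0.0242), and 1, Fosb, rose in p38a-lox PyMT against p38a-lox arrays by 2.38 ± 0.413 (adjusted p = 0.0167). Of all genes, 1.26% were called in the first of these comparisons and 0.777% in the second. Within p38a-lox cells Klf4 differed by -1.95 ± 0.596 with PyMT (adjusted p = 0.16). For p38a-lox without PyMT 0 of the 13 were called, with Egr1 at 2.75 ± 0.452 (adjusted p = 0.154) and Egr2 at 2.09 ± 0.379 (adjusted p = 0.169), and the Egr1 interaction was -2.45 ± 0.639 (adjusted p = 0.992). The part of these genes in the results on NF-kB genes was not tested.

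Among markers of other cells, the mean of 6 basal markers was 7.70 to 8.52 in p38a-lox PyMT and 7.50 to 8.43 in PyMT arrays, against 5.58 to 7.57 in p38a-lox and 5.97 to 7.93 in MMTV-Cre arrays. Trp63 rose by 2.2 on the log2 scale in PyMT against MMTV-Cre arrays (limma adjusted p = 0.0142). It was the only 1 of the 6 called there, with 4 of the 6 estimates above 0 and 2 below 0. The mean of the 6 tested leukocyte markers, of 9 listed, was 5.37 to 5.56 in p38a-lox PyMT and 5.37 to 5.54 in PyMT arrays, against 4.74 to 5.43 in p38a-lox and 4.98 to 5.40 in MMTV-Cre arrays. Of these, Cd68 rose in p38a-lox PyMT against p38a-lox arrays, by 2.74 on the log2 scale (limma adjusted p = 0.0357), while Cd74 differed by -0.36 and Csf1r by -0.08, and the defining markers Ptprc, Itgam and Cd3e were below the filter. Without Cd68 the list mean was 4.65 to 4.85 in p38a-lox PyMT and 4.66 to 5.21 in PyMT arrays, against 4.62 to 5.02 in p38a-lox and 4.61 to 4.85 in MMTV-Cre arrays, so all groups overlapped. Of 6 fibroblast markers, Col1a2, Pdgfra and Lum were below the filter. The mean of the 3 tested, Col1a1, Col3a1 and Dcn, was 5.09 to 8.18 in p38a-lox PyMT and 5.38 to 8.04 in PyMT arrays. It was 5.20 to 6.06 in p38a-lox and 6.10 to 7.79 in MMTV-Cre arrays. Fewer cells of a type and less RNA per cell cannot be told apart in these bulk samples, and the part of these cells in the NF-kB results was not tested.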

How the data were processed

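The authors deposited a table of log2 signals for 45141 probe sets on 16 arrays; the submitters' processing notes name RMA, and no source used here gives its version or settings. Because RMA quantile-normalises, differences in total RNA cannot be read. Probe sets were named from the platform annotation table, which listed 29449 of them; the 28898 with exactly 1 symbol were used, 551 had several, and 15692 have no name here. By Entrez ID 28689 matched RefSeq, which changed 0 symbols.

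Each gene was its probe set of highest mean over 16 arrays, tested where this reached the 25th percentile of all probe sets (3.67). One limma 3.58.1 model in R 4.3.3 held a mean for each group (12 residual and 2.83 prior degrees of freedom), and p-values were adjusted by Benjamini-Hochberg over 14410 genes. Errors are standard errors for differences and SDs for group means. Exact permutation tests used scipy 1.17.1. Precision is limited by the number of arrays. The procedure was tested on simulated arrays with known changes and independent noise. These held no effect of the title range, so they do not show how the procedure performs where that range matters.

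The members and gene lists were chosen with earlier results of these data known. Named genes are the members, Mapk14, up to 4 genes of smallest p in each list and the 3 genes most correlated with each of 4 members. The title range and the 2 arrays of lowest correlation were taken from those earlier results, and the averaged PyMT contrast was added after seeing the data. Alternatives were other filters, probe-set rules, scalings, array weights, subsets of arrays and leaving out each array.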

Additional observations from a re-analysis of the deposited data

Results flagged for a closer look

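Of 56 groups of 4 arrays, 1 for each member probe set and genotype, 3 held an array far from the others of its group by Dixon's criterion; chance gives about 1 in 20. Nfkb2 read 8.896 in p38a-lox replicate 2, against 7.303 to 7.572 in the other 3 p38a-lox arrays. It read 7.461 in p38a-lox PyMT replicate 1, against 6.967 to 7.026 in the others of its group. The second Nfkbiz probe set read 9.209 in p38a-lox PyMT replicate 1, against 8.023 to 8.152 in the others.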

How the results depend on the processing

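Of the estimates for single members under every alternative, 1276 kept their direction and their side of the threshold and 77 turned. Another 11 newly passed and 16 no longer passed, and the cause was not tested. In comparisons of single groups, leaving out an array of another group left the estimate unchanged, so its direction could not turn. The same holds for fits without a filter or of only the arrays compared. The count of 1276 is therefore no measure of stability. No member was called for p38a-lox in either background or for the interaction in any fit. No paired analysis was possible because replicate numbers only follow accession order. The number of arrays and the spread between them limit detection.

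Counts of called genes moved most with array weights, to 8 for p38a-lox without PyMT and 5 with PyMT. They were 1268 for PyMT without p38a-lox, 1416 with it and 2644 averaged, of 14410 genes tested. In the last 2, 1 and 5 members were called. The 1 was Nfkbie, which averaged lower with PyMT. Of the 5, 3 averaged higher with PyMT, Rel by 0.64, Nfkbib by 0.65 and Nfkbiz by 0.92. Without a filter 1 gene was called for p38a-lox without PyMT. PyMT without p38a-lox called 111 genes without the 2 arrays of lowest correlation and 55 in a fit of only the arrays compared, which called 169 with p38a-lox. For the averaged contrast, a fit of all probe sets called 1380 of them and 0 members (Nfkbia at adjusted p = 0.0504), no filter and median centring also called 0 members, and the title range as a covariate called 3.

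Leaving out each array in turn, the called genes ran from 0 to 4 for p38a-lox without PyMT, 0 to 3 with PyMT, 49 to 443 for PyMT without p38a-lox, 26 to 230 with it and 554 to 1197 averaged. Members called ran from 0 to 1 for PyMT with p38a-lox and 0 to 2 averaged. The extremes came without PyMT replicates 1 and 2, without p38a-lox PyMT replicates 3 and 2, and without MMTV-Cre replicate 2.

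Members near 0 turned sign. For p38a-lox without PyMT, array weights gave -0.084 for Rel, -0.11 for Relb, -0.13 for Nfkbia, -0.30 for Nfkbib and -0.19 for Nfkbiz. Without the 2 arrays of lowest correlation Nfkb2 was at -0.056, Relb at -0.14 and Nfkbib at -0.36, and with median centring Nfkbib was at -0.0014. With an array left out, estimates ran from -0.056 to 0.48 for Nfkb2, -0.061 to 0.36 for Rel, -0.14 to 0.59 for Relb, -0.0017 to 0.30 for Nfkbia, -0.36 to 0.22 for Nfkbib and -0.17 to 0.67 for Nfkbiz.

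For p38a-lox with PyMT, array weights gave -0.35 for Nfkb2, -0.11 for Rel, -0.33 for Relb, -0.17 for Nfkbia and -0.40 for Tnfaip3, and a second quantile normalization gave -0.0051 for Nfkb2. Nfkbie was at 0.0043 as the mean of its probe sets, 0.040 with the title range and 0.28 without the 2 arrays of lowest correlation. With an array left out, estimates ran from -0.11 to 0.26 for Nfkb2, -0.11 to 0.49 for Relb, -0.076 to 0.34 for Nfkbia, -0.48 to 0.28 for Nfkbie and -0.18 to 0.27 for Tnfaip3.

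For the interaction, array weights gave -0.026 for Rel and -0.041 for Nfkbia. Without the 2 arrays of lowest correlation the values were 0.088 for Nfkb2, -0.020 for Rel, 0.19 for Relb and -0.024 for Nfkbia, and Relb was at 0.046 with median centring and 0.25 with the title range. With an array left out, the interaction ran from -0.45 to 0.086 for Nfkb2, -0.13 to 0.35 for Rel, -0.037 to 0.58 for Rela, -0.37 to 0.36 for Relb, -0.23 to 0.20 for Nfkbia and -0.55 to 0.032 for Nfkbib.

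For PyMT with p38a-lox, Nfkbib was at -0.030 as the mean of its probe sets and -0.0064 with a second quantile normalization. With an array left out, estimates ran from -0.13 to 0.45 for Nfkbib, -0.19 to 0.69 for Nfkbiz and -0.76 to 0.088 for Tnfaip3. Averaged over both states, Tnfaip3 ran from -0.0079 to 0.42.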
